A study of Arabidopsis thaliana with 51 samples.

Results

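Transcript levels of 3 genes of the anthocyanin pathway, DFR, UF3GT and AT4G14090, were examined in whole Arabidopsis thaliana seedlings treated with an elicitor peptide. The genes were taken by name from the probe annotation table of the Affymetrix ATH1 array, which pairs each of them with exactly 1 probe set, so the members are 3 of 22746 probe sets that represent genes. Their loci are AT5G42800 (DFR), AT5G54060 (UF3GT) and AT4G14090. The series holds 51 arrays in 17 groups of 3 biological replicates. Seedlings of the lines ein2-1, efr-1, pepr1-1 pepr2-3, bak1-3 and wild type (WT) grew 5 to 6 days on agar and another 5 to 6 days in liquid, both with sucrose, with days of 12 h light. The treatment was 1 µM of elf18, a fragment of bacterial elongation factor Tu perceived by the receptor kinase EFR, or 1 µM of the plant peptide Pep2, perceived by PEPR1 and PEPR2. All lines were sampled untreated (0 h). elf18 was given for 2 h or 10 h to ein2-1 and for 10 h to efr-1. Pep2 was given for 2 h to ein2-1, and for 2 h or 10 h to pepr1-1 pepr2-3 and to bak1-3. WT received either peptide for 2 h or 10 h. Each mutated gene is represented by 1 allele in 1 line. The lines stand below as ein2, efr, pepr1 pepr2 and bak1.

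Anthocyanins are red to purple pigments that seedlings store in the vacuole, and sugar, light and stress are known to raise their synthesis. DFR, dihydroflavonol 4-reductase, catalyses the first step that leads from the flavonoid precursors shared with flavonols towards anthocyanins. UF3GT and AT4G14090 act at the end of the pathway and attach sugars to the pigment: the UF3GT product is known to add xylose to the sugar on the 3 position, and the AT4G14090 product to add glucose at the 5 position. Late genes of this kind are known to be switched on by a complex of MYB, bHLH and WD40 proteins. EIN2 carries the ethylene signal, and BAK1 is a co-receptor kinase of several immune receptors.

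Levels are log2 expression values that the authors made with GCRMA, given per array or as the mean ± SD of 3 arrays. Changes are log2 differences with their SE from a limma fit of all 51 arrays. A difference was called at a Benjamini-Hochberg adjusted p under 0.05, adjusted over the 14568 probe sets tested, with at least a 2-fold change, and all 3 members passed the filter on low values. The filter asked for log2 of at least 5 on at least 3 arrays. AT4G14090 lay under that level in untreated WT (3.44 to 4.06) and in WT after 2 h (3.89 to 4.45) or 10 h (2.59 to 2.73) of elf18. It was also under that level in untreated efr (4.06 to 4.98) and in bak1 after 2 h of Pep2 (3.54 to 4.65). In untreated pepr1 pepr2 it read 4.64 to 5.28. In ein2 after 10 h of elf18 all 3 members were under that level (2.57 to 4.99). UF3GT and DFR were in WT after 10 h of elf18. UF3GT also was in WT after 2 h of either peptide and in bak1 after 2 h of Pep2. The members passed through other groups, so differences from these groups rest on low values. Array medians lay between 6.04 and 6.16, and no pair of arrays within a group correlated below 0.977 over the probe sets. Where arrays of compared groups are said not to overlap, the share of all tested probe sets without overlap was not counted. The lowest value of the table is 2.08, and how large a change to or from it appears is set in part by the background correction within GCRMA. The WT changes against 0 h, the baseline differences of the mutants from WT and the differences between a mutant's response and that of WT share the 3 untreated WT arrays. Untreated seedlings were sampled at 0 h only. A change against 0 h therefore covers both the passing of time and the peptide. In RNA of whole seedlings, fewer cells that express a gene and less RNA per cell cannot be told apart. The annotation table names EFR and none of the other mutated genes. The EFR transcript was close to the lowest value in efr, at 2.20 ± 0.07 at 0 h and 2.17 ± 0.01 after elf18, against 3.22 ± 0.32 in untreated WT. Of the shoot and root markers listed, the annotation table names LHCB4.2, RCA and EXPA7, and they read 8.98 to 14.33, 13.79 to 15.21 and 5.47 to 7.41 over the 51 arrays. LHCB4.2 fell in every group sampled at 10 h, with changes from -4.56 in WT with elf18 to -2.21 in ein2 with elf18, and its part in the results at 10 h was not tested.

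The 3 members covered wide ranges. DFR read from 2.16 to 9.82 on single arrays, UF3GT from 2.101 to 9.61 and AT4G14090 from 2.57 to 8.19. The group means of DFR spanned 7.14 and those of UF3GT 7.05, wider than 99.2% and 99.1% of the tested probe sets with 1 gene, and those of AT4G14090 spanned 5.10, wider than 96.2%. The members were chosen with earlier results of these data known, so these ranks are a description only. All 3 were highest in untreated ein2 and lowest in WT after 10 h of elf18. In the order of the 17 group means most neighbours overlapped on their arrays, 15 of 16 neighbouring pairs for DFR, 13 of 16 for UF3GT and 14 of 16 for AT4G14090.

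**Figure D1:**
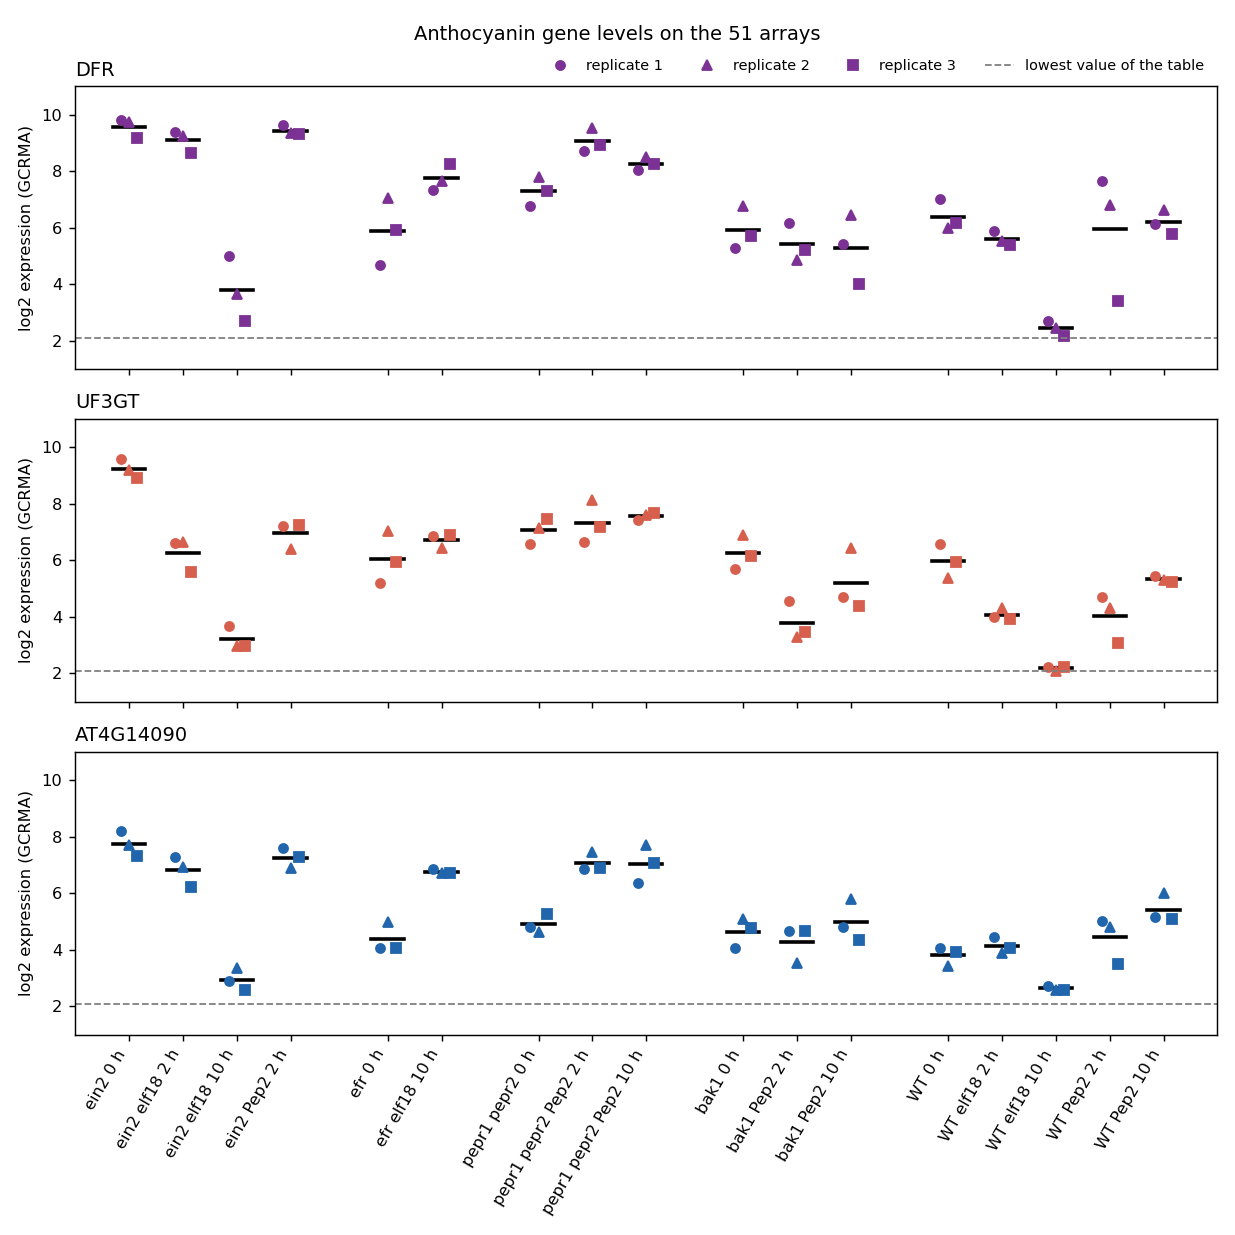
Log2 expression of DFR, UF3GT and AT4G14090 (vertical axes) in the 17 groups (horizontal axis, by line and treatment). Each symbol is 1 array, its shape the replicate number, black bars are group means, and the dashed line is the lowest value of the table, 2.08. The 3 genes stand highest in untreated ein2 and near the dashed line in WT after 10 h of elf18.

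Before any peptide was given, ein2 seedlings held more of all 3 transcripts than WT. DFR read 9.82, 9.74 and 9.16 in untreated ein2, against 7.03, 5.98 and 6.16 in untreated WT. UF3GT read 9.61, 9.21 and 8.91 in ein2, against 6.57, 5.40 and 5.95 in WT. AT4G14090 read 8.19, 7.70 and 7.32 in ein2, against 4.06, 3.44 and 3.93 in WT. For none of the 3 genes did an ein2 array fall within the WT range. The differences were 3.18 (SE 0.651, adjusted p = 0.000531) for DFR, 3.27 (SE 0.454, adjusted p = 1.19e-06) for UF3GT and 3.93 (SE 0.382, adjusted p = 4.17e-10) for AT4G14090. All 3 were thus called higher, where 2.29% of all tested probe sets were. On a linear scale these are 9.09-fold, 9.63-fold and 15.2-fold differences.

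The other untreated mutants gave no call. In pepr1 pepr2 the baseline differences from WT were 0.89 for DFR (95% interval -0.43 to 2.21), 1.09 for UF3GT (0.18 to 2.01) and 1.10 for AT4G14090 (0.33 to 1.87), with adjusted p values of 1, 0.847 and 0.581. For UF3GT and AT4G14090 the pepr1 pepr2 and WT arrays did not overlap. How many of all tested probe sets did not overlap there was not counted, so this adds nothing to the uncalled differences. In efr and bak1 all baseline differences lay between -0.50 and 0.82, and each overlapped WT on the arrays. In these 3 comparisons 0.0275% to 0.0481% of the tested probe sets were called higher.

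The lowest levels of the series came after 10 h of elf18 in WT. DFR read 2.71, 2.45 and 2.16 in treated WT, against 7.03, 5.98 and 6.16 in untreated WT. UF3GT read 2.24, 2.101 and 2.22 after treatment and AT4G14090 2.73, 2.59 and 2.59, all close to the lowest value of the table. DFR fell by 3.95 (SE 0.651, adjusted p = 1.66e-06), UF3GT fell by 3.79 (SE 0.454, adjusted p = 2.48e-09) and AT4G14090 fell by 1.17 (SE 0.382, adjusted p = 0.00729), so 3 of 3 were called lower, where 13.5% of all tested probe sets were. The untreated and treated arrays did not overlap for any of them. At the same time point the shoot marker LHCB4.2 fell by 4.56 and RCA fell by 1.10, and the root hair gene EXPA7 had a change of -0.37 (adjusted p = 0.159). Their part in the result was not tested.

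At 2 h of elf18 UF3GT alone was called in WT. UF3GT read 4.01, 4.32 and 3.92 in treated WT, all below the untreated arrays, and fell by 1.89 (SE 0.454, adjusted p = 0.000683). DFR read 5.87, 5.53 and 5.39, a change of -0.79 (95% interval -2.11 to 0.53, adjusted p = 0.326), and AT4G14090 read 4.45, 3.89 and 4.06, a change of 0.32 (-0.45 to 1.10, adjusted p = 0.511). Thus 1 of 3 was called lower, where 6.34% of all tested probe sets were. Whether the members differ from each other in their response was not tested. Between 2 h and 10 h of elf18 all 3 went lower in WT, with differences of -3.16 for DFR, -1.89 for UF3GT and -1.49 for AT4G14090 at 10 h against 2 h (adjusted p = 0.000119, 0.000709 and 0.00143), where 6.01% of the tested probe sets were called lower.

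In efr, mutated in the elf18 receptor, none of the 3 genes was called lower after the same treatment, where 7.12% of all tested probe sets were. A count of none is close to this share, so the lines are compared below by their levels and responses. At 10 h DFR read 7.33, 7.66 and 8.24 in treated efr, against 2.71, 2.45 and 2.16 in treated WT. UF3GT read 6.85, 6.45 and 6.90 in treated efr, against 2.24, 2.101 and 2.22 in treated WT. AT4G14090 read 6.84, 6.73 and 6.73 in treated efr, against 2.73, 2.59 and 2.59 in treated WT. The arrays of the lines did not overlap for any gene, and efr exceeded WT by 5.31 for DFR, 4.55 for UF3GT and 4.13 for AT4G14090 (adjusted p = 4.17e-09, 2.87e-11 and 4.26e-12), where 14.4% of all tested probe sets were called higher. The response of efr minus that of WT was 5.80 (SE 0.921, adjusted p = 1.47e-06) for DFR, 4.45 (SE 0.641, adjusted p = 2.42e-07) for UF3GT and 3.57 (SE 0.541, adjusted p = 6.24e-07) for AT4G14090. All 3 interactions were called higher, where 14.7% of all tested probe sets were. The shoot markers were also higher in treated efr than in treated WT. LHCB4.2 fell in efr, with a change of -2.98, but by less than in WT: its interaction was 1.58 (adjusted p = 5.83e-05), and efr exceeded WT by 1.63 (adjusted p = 4.73e-08). RCA was 0.90 higher in efr than in WT (adjusted p = 5.17e-12), short of 2-fold. The part of either in the result was not tested.

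Against their own 0 h, AT4G14090 and DFR were higher in efr after 10 h of elf18. AT4G14090 read 6.84, 6.73 and 6.73 after treatment, against 4.06, 4.98 and 4.06 at 0 h, and rose by 2.40 (SE 0.382, adjusted p = 1.89e-06). DFR rose by 1.85 (SE 0.651, adjusted p = 0.0172), and its untreated efr arrays were spread widely, at 4.69, 7.06 and 5.93. Without efr 0 h replicate 1 the DFR change was 1.25 (adjusted p = 0.147), and without efr 10 h replicate 3 it was 1.60 (adjusted p = 0.0725). UF3GT had a change of 0.67 (95% interval -0.25 to 1.59, adjusted p = 0.228). This makes 2 of 3 called higher, where 8.09% of all tested probe sets were.

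ein2 seedlings started higher, and their 3 transcripts fell to between 2.57 and 4.99 after 10 h of elf18. DFR read 4.99, 3.63 and 2.71 in ein2, against 9.82, 9.74 and 9.16 in untreated ein2. UF3GT read 3.69, 2.97 and 2.98 after treatment, against 9.61, 9.21 and 8.91 before it. AT4G14090 read 2.90, 3.35 and 2.57 after treatment, against 8.19, 7.70 and 7.32 before it. No treated array reached the untreated range of its gene. DFR fell by 5.80 (SE 0.651, adjusted p = 6.04e-10), UF3GT fell by 6.03 (SE 0.454, adjusted p = 1.62e-14) and AT4G14090 fell by 4.80 (SE 0.382, adjusted p = 8.17e-14), so 3 of 3 were called lower, where 12.8% of all tested probe sets were. For UF3GT this is a 65.4-fold decrease on the linear scale.

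The log2 decrease at 10 h of elf18 was compared between ein2 and WT. The ein2 response minus the WT response was -2.25 (SE 0.641, adjusted p = 0.0186) for UF3GT and -3.62 (SE 0.541, adjusted p = 1.46e-05) for AT4G14090, and -1.85 (95% interval -3.71 to 0.02, adjusted p = 0.188) for DFR. Thus 2 of 3 were called lower, where 1.99% of all tested probe sets were. The UF3GT call ended without WT 0 h replicate 2 (-1.96, adjusted p = 0.0605) and without ein2 0 h replicate 1 (-2.06, adjusted p = 0.063). With array weights DFR was called as well, at -2.20 (adjusted p = 0.0422). In treated seedlings no difference between the lines was called for any member, where 3.66% of the tested probe sets were called higher. ein2 minus WT at 10 h of elf18 was 1.34 (95% interval 0.02 to 2.66, adjusted p = 0.149) for DFR, 1.02 (0.10 to 1.94, adjusted p = 0.109) for UF3GT and 0.30 (-0.47 to 1.08, adjusted p = 0.634) for AT4G14090. The UF3GT arrays did not overlap, and UF3GT was called when only these groups were fitted (adjusted p = 0.0227). WT stood near the lowest value of the table there, and a WT decrease as large as that of ein2 would have ended below it for each gene. The negative interactions therefore cannot be read as a different response apart from the higher starting level of ein2. The shoot marker LHCB4.2 was higher in treated ein2 than in treated WT by 1.85 (adjusted p = 2.93e-08). Its interaction was 2.35 (adjusted p = 2.72e-06), and its part in the result was not tested.

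At 2 h of elf18 UF3GT was again the gene called in ein2. UF3GT read 6.62, 6.64 and 5.58 in treated ein2, against 9.61, 9.21 and 8.91 in untreated ein2, and fell by 2.96 (SE 0.454, adjusted p = 8.72e-07). AT4G14090 had a change of -0.93 (SE 0.382, adjusted p = 0.0417), which is short of the 2-fold minimum, and DFR a change of -0.48 (95% interval -1.80 to 0.84, adjusted p = 0.568). This makes 1 of 3 called lower, where 7.11% of all tested probe sets were. Without ein2 0 h replicate 3 or ein2 elf18 2 h replicate 1 AT4G14090 was called too, at -1.13 and -1.16. None of the 3 interactions of ein2 with 2 h of elf18 was called. They were 0.31 for DFR, -1.07 for UF3GT and -1.25 for AT4G14090, with 95% intervals of -1.55 to 2.17, -2.37 to 0.23 and -2.34 to -0.16, where 0.693% of the tested probe sets were called higher and 0.68% lower. Levels in ein2 at 2 h stayed above those of WT at 2 h by 3.50 for DFR, 2.20 for UF3GT and 2.68 for AT4G14090 (adjusted p = 0.000102, 0.000393 and 1.19e-06), where 3.23% of the tested probe sets were called higher. The later step was large: at 10 h against 2 h the differences in ein2 were -5.32 for DFR, -3.07 for UF3GT and -3.87 for AT4G14090, all called lower, where 4.87% of the tested probe sets were.

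**Figure D2:**
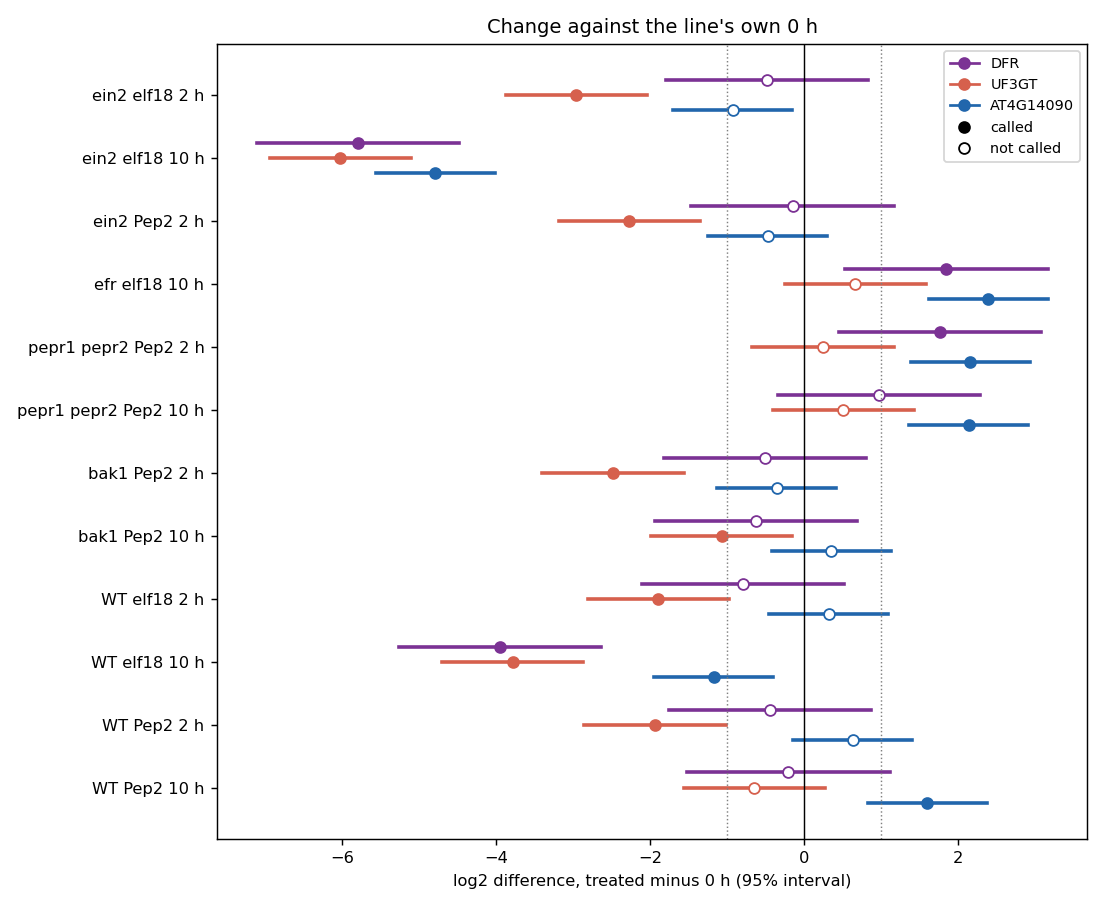
Change of DFR, UF3GT and AT4G14090 against the line's own 0 h (horizontal axis, log2 difference with its 95% interval from limma) in the 12 treated groups (vertical axis). Filled symbols were called, open ones were not, and dotted lines mark a 2-fold change. For each gene the values of ein2 and then WT at 10 h of elf18 are the lowest, UF3GT alone was called at 2 h in ein2, bak1 and WT, and the treated efr and pepr1 pepr2 values lie above 0.

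Under Pep2 UF3GT was lower at 2 h in WT. UF3GT read 4.70, 4.33 and 3.09 after 2 h of Pep2, against 6.57, 5.40 and 5.95 at 0 h, and fell by 1.94 (SE 0.454, adjusted p = 0.000396). It was the 1 of 3 members called lower, where 10% of all tested probe sets were. DFR read 7.64, 6.81 and 3.40 and had a change of -0.44 (95% interval -1.76 to 0.88, adjusted p = 0.581). AT4G14090 read 5.03, 4.81 and 3.49 and had a change of 0.63 (-0.14 to 1.41, adjusted p = 0.154). Replicate 3 was the lowest array of this group for each of the 3 genes. Its deviation over all tested probe sets, 0.24 (root mean square, log2), had rank 4 of the 51 arrays, and its weight in the fit with array weights was 0.491. Without it the DFR change was 0.84 and the AT4G14090 change 1.11, and AT4G14090 was then called higher (adjusted p = 0.0174). With array weights the DFR change turned to 0.26.

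After 10 h of Pep2 the WT levels differed by gene. AT4G14090 read 5.15, 6.00 and 5.08 in treated WT, against 4.06, 3.44 and 3.93 in untreated WT, and rose by 1.60 (SE 0.382, adjusted p = 0.000562), the 1 member of 3 called higher, where 8.57% of all tested probe sets were. UF3GT read 5.44, 5.30 and 5.25, a change of -0.64 (95% interval -1.56 to 0.27, adjusted p = 0.237). DFR read 6.14, 6.64 and 5.78, a change of -0.20 (-1.52 to 1.12, adjusted p = 0.816). Compared with 2 h of Pep2, UF3GT was higher at 10 h by 1.29 (adjusted p = 0.015), a call that ended without WT Pep2 2 h replicate 3 (0.82, adjusted p = 0.16) and with array weights (0.99). That comparison called 9.25% of the tested probe sets higher. The AT4G14090 difference was 0.97 (adjusted p = 0.0302), under the 2-fold minimum, and was called without WT Pep2 2 h replicate 1 or 2 or WT Pep2 10 h replicate 1 or 3 (1.10 to 1.26). The DFR difference was 0.24 (adjusted p = 0.782), and -1.04 without WT Pep2 2 h replicate 3.

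The peptides differed at 10 h in WT. elf18 minus Pep2 was -3.75 (SE 0.651, adjusted p = 8.16e-06) for DFR, -3.14 (SE 0.454, adjusted p = 3.08e-07) for UF3GT and -2.77 (SE 0.382, adjusted p = 1.22e-07) for AT4G14090. No array of the elf18 group reached the Pep2 group for any of the 3 genes, and 3 of 3 were called lower, where 7.08% of all tested probe sets were. At 2 h the differences were -0.35 for DFR (95% interval -1.67 to 0.97), 0.04 for UF3GT (-0.87 to 0.96) and -0.31 for AT4G14090 (-1.08 to 0.46), none of them called, where 4.1% were called lower. Without WT Pep2 2 h replicate 3 the DFR difference at 2 h was -1.63 (adjusted p = 0.0369) and was called lower. In ein2 at 2 h the differences between peptides were -0.34 for DFR, -0.69 for UF3GT and -0.46 for AT4G14090, also without a call, where 4.37% were called lower.

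In seedlings mutated in PEPR1 and PEPR2 no member was called lower under Pep2, where 2.11% of all tested probe sets were at 2 h and 7.57% at 10 h. A count of none is close to these shares. In WT under Pep2 UF3GT alone was called lower at 2 h, and no member was at 10 h. UF3GT read 6.65, 8.13 and 7.17 in pepr1 pepr2 at 2 h, against 4.70, 4.33 and 3.09 in WT at 2 h. DFR read 8.70, 9.53 and 8.93 in pepr1 pepr2 at 2 h, against 7.64, 6.81 and 3.40 in WT. AT4G14090 read 6.85, 7.47 and 6.90 in pepr1 pepr2, against 5.03, 4.81 and 3.49 in WT. All mutant arrays lay above all WT arrays for each gene. The levels differed by 3.11 for DFR, 3.28 for UF3GT and 2.63 for AT4G14090 (adjusted p = 9.07e-05, 8.13e-08 and 2.2e-07), all called higher, where 10.6% of all tested probe sets were. Without WT Pep2 2 h replicate 3 the DFR difference was 1.83 and stayed called.

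Measured against their own 0 h, DFR and AT4G14090 were higher in pepr1 pepr2 after 2 h of Pep2. AT4G14090 read 6.85, 7.47 and 6.90 at 2 h, against 4.81, 4.64 and 5.28 at 0 h, and rose by 2.16 (SE 0.382, adjusted p = 6.1e-05). DFR rose by 1.77 (SE 0.651, adjusted p = 0.0433), a call that ended on leaving out any 1 of the 6 arrays (1.52 to 2.02) and without the filter on low values (adjusted p = 0.0779). UF3GT had a change of 0.25 (95% interval -0.67 to 1.17, adjusted p = 0.754). This makes 2 of 3 called higher, where 1.42% of all tested probe sets were. The response of pepr1 pepr2 minus that of WT was 2.18 (SE 0.641, adjusted p = 0.00498) for UF3GT, 2.21 (SE 0.921, adjusted p = 0.0447) for DFR and 1.53 (SE 0.541, adjusted p = 0.0185) for AT4G14090, all called higher, where 11.3% were.

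Of these 3 interactions, that of UF3GT was called under every alternative tried. That of DFR was 0.94 (adjusted p = 0.331) without WT Pep2 2 h replicate 3, and its call also ended without any 1 of 6 other arrays (1.89 to 2.33), with array weights (1.66), without the filter on low values and when only the groups compared were fitted. That of AT4G14090 was 1.05 (adjusted p = 0.103) without WT Pep2 2 h replicate 3 and 1.33 (adjusted p = 0.0549) without pepr1 pepr2 Pep2 2 h replicate 2.

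By 10 h of Pep2 AT4G14090 was still higher in pepr1 pepr2 than at 0 h, at 6.37, 7.70 and 7.08, and rose by 2.14 (SE 0.382, adjusted p = 1.26e-05). It was the 1 of 3 members called higher, where 7.21% of all tested probe sets were. DFR, at 8.05, 8.48 and 8.24, had a change of 0.98 (95% interval -0.34 to 2.29, adjusted p = 0.22) and UF3GT, at 7.44, 7.62 and 7.68, a change of 0.51 (-0.40 to 1.43, adjusted p = 0.366). The levels exceeded those of WT at 10 h of Pep2 by 2.07 for DFR, 2.25 for UF3GT and 1.64 for AT4G14090 (adjusted p = 0.0106, 0.00014 and 0.000772), 3 of 3 called higher, where 3.54% were. The interactions, which set each line against its own 0 h, were 1.18 for DFR, 1.16 for UF3GT and 0.54 for AT4G14090 (95% intervals -0.69 to 3.04, -0.14 to 2.46 and -0.55 to 1.64), none of them called, where 3.83% were called higher. At 10 h against 2 h of Pep2 the differences in pepr1 pepr2 were -0.80 for DFR, 0.26 for UF3GT and -0.02 for AT4G14090, none of them called, where 4.52% were called higher and 5.14% lower. AT4G14090 was thus called higher at 10 h in efr with elf18, in pepr1 pepr2 with Pep2 and in WT with Pep2, at 2.40, 2.14 and 1.60.

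**Figure D3:**
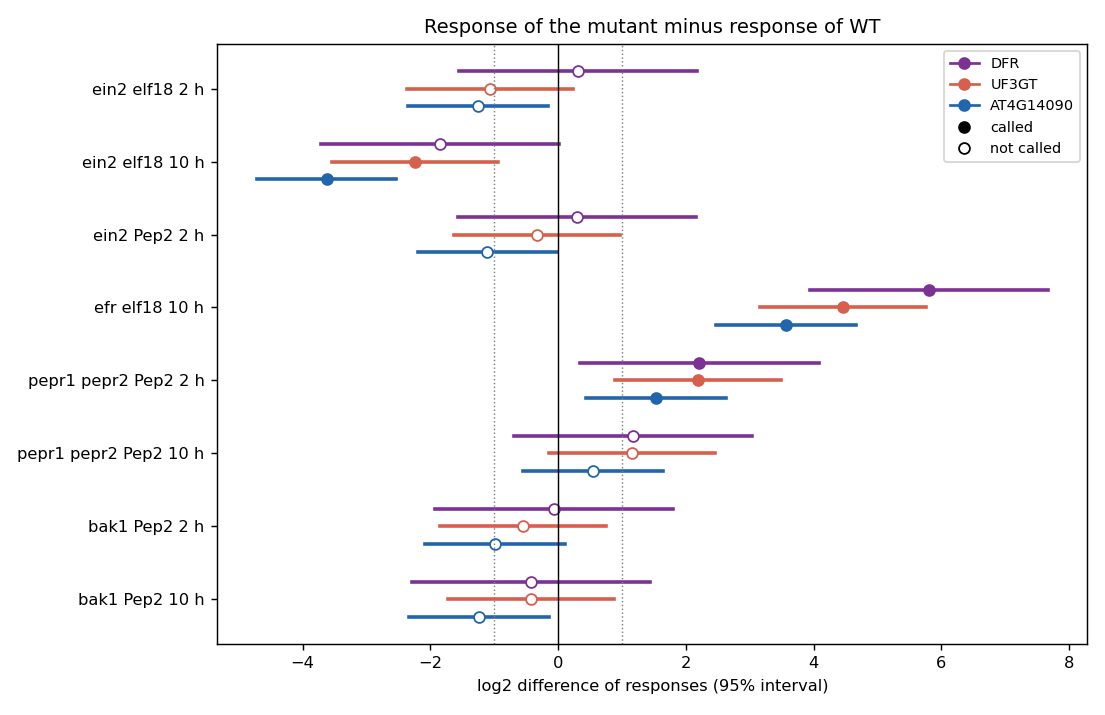
Response of each mutant minus the WT response to the same peptide at the same time (horizontal axis, log2 difference with its 95% interval from limma) for DFR, UF3GT and AT4G14090 in 8 comparisons (vertical axis). Filled symbols were called and open ones were not. For each gene the value of efr at 10 h of elf18 (5.80, 4.45 and 3.57) lies highest and that of ein2 at 10 h of elf18 lowest.

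In bak1 UF3GT was the gene called under Pep2. It read 4.56, 3.28 and 3.48 at 2 h, against 5.68, 6.91 and 6.16 at 0 h, and fell by 2.48 (SE 0.454, adjusted p = 1.44e-05), the 1 of 3 members called lower, where 9.38% of all tested probe sets were. The changes of DFR and AT4G14090 were -0.50 (95% interval -1.82 to 0.81) and -0.36 (-1.13 to 0.42). At 10 h UF3GT read 4.72, 6.45 and 4.39, overlapped the untreated arrays and was called lower with a change of -1.07 (SE 0.454, adjusted p = 0.0346), where 16.9% were. That call ended without bak1 0 h replicate 2 (-0.74) or 3 (-1.11), without bak1 10 h replicate 1 (-0.83) or 3 (-0.67), and in 4 other alternatives, and without bak1 10 h replicate 2 the change was -1.70. DFR and AT4G14090 had changes of -0.62 and 0.36 at 10 h, neither of them called. At 10 h against 2 h UF3GT was higher by 1.41 (adjusted p = 0.00713), but by 0.78 (adjusted p = 0.144) without bak1 10 h replicate 2, where 9.26% were called higher. The corresponding differences were -0.12 for DFR and 0.71 for AT4G14090 (adjusted p = 0.104), and AT4G14090 was called without bak1 10 h replicate 3 (1.03).

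No interaction of bak1 with Pep2 was called for any member. At 2 h they were -0.06 for DFR (95% interval -1.93 to 1.80), -0.55 for UF3GT (-1.84 to 0.75) and -0.99 for AT4G14090 (-2.08 to 0.11), and 0.172% of the tested probe sets were called lower. At 10 h they were -0.42 for DFR (-2.28 to 1.45), -0.42 for UF3GT (-1.72 to 0.88) and -1.24 for AT4G14090 (-2.34 to -0.15, adjusted p = 0.0679), where 8.36% were called lower. AT4G14090 was called at 10 h without bak1 0 h replicate 1 (-1.53) or bak1 10 h replicate 2 (-1.65). Treated levels in bak1 minus WT lay between -0.54 and -0.16 at 2 h and between -0.89 and -0.14 at 10 h, overlapped on the arrays for each gene and gave no call, where 0.227% and 9.14% were called lower. These values do not show that the lines act alike. EXPA7 fell by 1.40 in bak1 at 10 h, and its part was not tested.

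Under 2 h of Pep2 in ein2 UF3GT was likewise the gene called. It read 7.22, 6.42 and 7.27 in treated ein2, against 9.61, 9.21 and 8.91 in untreated ein2, and fell by 2.27 (SE 0.454, adjusted p = 5.07e-05), the 1 of 3 members called lower, where 10.1% of all tested probe sets were. DFR read 9.62, 9.36 and 9.31, a change of -0.14 (95% interval -1.46 to 1.17), and AT4G14090 read 7.61, 6.90 and 7.28, a change of -0.47 (-1.25 to 0.30). The interactions with WT were 0.30 for DFR, -0.34 for UF3GT and -1.11 for AT4G14090, none of them called, where 1.26% were called lower. Their 95% intervals were -1.57 to 2.16, -1.63 to 0.96 and -2.20 to -0.01 (adjusted p = 0.883, 0.797 and 0.206). With single arrays left out the DFR value ranged from -0.98 to 1.14. These values do not show that the responses are alike. Treated ein2 stayed above treated WT by 3.48 for DFR, 2.93 for UF3GT and 2.82 for AT4G14090 (adjusted p = 0.000119, 5.81e-06 and 4.67e-07), where 3.01% were called higher. The DFR difference was 2.20 without WT Pep2 2 h replicate 3, and it was not called when only these groups were fitted (adjusted p = 0.0776).

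Replicates of a group varied together in the 3 genes. As a description over the 51 arrays, the deviations from the group mean correlated at r = 0.81 between DFR and UF3GT, 0.73 between DFR and AT4G14090 and 0.75 between UF3GT and AT4G14090. Without the 2 arrays farthest from the median the values were 0.82, 0.68 and 0.71, and without the WT Pep2 2 h group 0.82, 0.67 and 0.71. In 31 of 51 arrays all 3 genes deviated in the same direction. Of the other flavonoid genes given below, UGT78D2 and UGT78D1 deviated with the mean of the members too (r = 0.66 and 0.61), and CHIL did so less (0.11). The same was not computed over the other tested probe sets. The arrays of a pair of genes share RNA sample, hybridisation and normalisation. Over the 17 group means the members correlated at 0.89, 0.94 and 0.85 in the same order of pairs.

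**Figure D4:**
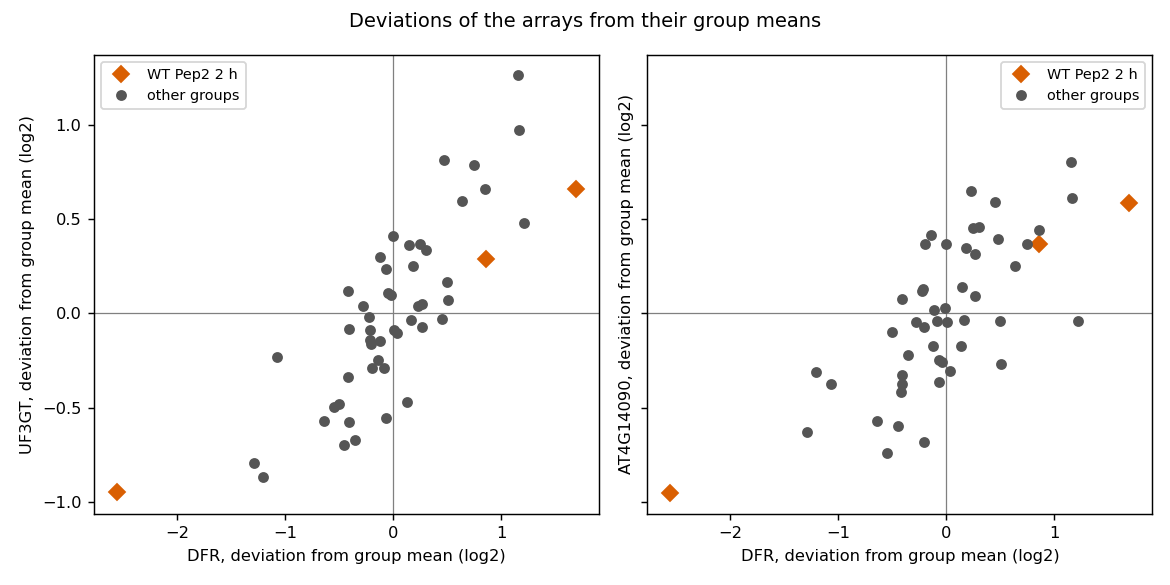
Deviation of each array from its group mean (log2) for UF3GT (left) and AT4G14090 (right, vertical axes) against DFR (horizontal axes), 51 arrays, with the WT Pep2 2 h group as diamonds. Arrays high in DFR tend to be high in the other genes, with r = 0.81 and 0.73.

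Other genes of the pathway came from lists of 19 early flavonoid, anthocyanin and proanthocyanidin genes. The annotation table names 6 of them, and 3 passed the filter on low values, UGT78D2, UGT78D1 and CHIL. UGT78D2, which glucosylates anthocyanidins and flavonols at the 3 position, fell in WT after 2 h and 10 h of elf18 (-1.07 and -1.50) and of Pep2 (-1.23 and -1.58). It also fell in efr at 10 h of elf18, with a change of -1.49 (SE 0.136, adjusted p = 1.02e-11), where AT4G14090 and DFR rose. In pepr1 pepr2 its changes of -0.38 and -0.99 at 2 h and 10 h of Pep2 (adjusted p = 0.0382 and 1.19e-07) stayed under the 2-fold minimum. Untreated ein2 exceeded WT in UGT78D2 by 0.74 (SE 0.136, adjusted p = 0.000121), under the 2-fold minimum.

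UGT78D1, which attaches rhamnose to flavonols, was called lower in the same 8 of 12 treated groups as UF3GT. UGT78D2 was called lower in these 8 groups as well, among 10 in all. In these 8 groups 6.34% to 16.9% of all tested probe sets were called lower. They include bak1 at 10 h of Pep2, where the UF3GT call ended under several alternatives. UGT78D1 fell in WT at 2 h of elf18 (-1.56) and of Pep2 (-1.71) and at 10 h of elf18 (-1.92), and had a change of -0.42 (adjusted p = 0.0607) at 10 h of Pep2. In efr and pepr1 pepr2 its changes lay between -0.28 and 0.08, and none was called. The efr interaction at 10 h of elf18 was 1.76 (SE 0.271, adjusted p = 8.44e-07), where 14.7% of all tested probe sets were called higher. The pepr1 pepr2 interaction at 2 h of Pep2 was 1.79 (SE 0.271, adjusted p = 9.34e-07), where 11.3% were called higher. CHIL, a chalcone isomerase-like protein that aids the early pathway, was called against its own 0 h only in bak1, where it fell by 1.13 at 2 h and fell by 1.60 at 10 h of Pep2. In WT under Pep2 it also went lower, short of 2-fold, by -0.64 at 2 h and -0.33 at 10 h (adjusted p = 3.32e-05 and 0.024). Its bak1 interaction was -0.50 (adjusted p = 0.202) at 2 h and -1.28 (adjusted p = 3.06e-07) at 10 h, where 0.172% and 8.36% were called lower. In pepr1 pepr2 at 2 h of Pep2 the CHIL interaction was 1.03 (adjusted p = 6.42e-06), where 11.3% were called higher. At 10 h of elf18 CHIL had changes of 0.27 in WT, 0.26 in ein2 and 0.86 in efr, none reaching 2-fold.

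Counted over these 3 genes, 2 were called lower in WT at 2 h and 10 h of elf18, where 6.34% and 13.5% of all tested probe sets were, and in ein2 at the same times, where 7.11% and 12.8% were. At 2 h of Pep2 the count was 2 in WT and in ein2, where 10% and 10.1% were called lower. In bak1 it was 3 at 2 h and 10 h of Pep2, where 9.38% and 16.9% were. The count was 1 in efr at 10 h of elf18 and 1 in WT at 10 h of Pep2, where 7.12% and 8.85% were. In pepr1 pepr2 it was 0 at 2 h and 10 h of Pep2, where 2.11% and 7.57% were. There UGT78D2 was lower and CHIL higher at an unadjusted p under 0.05 in limma at both times, without reaching 2-fold, and the CHIL changes were 0.39 and 0.34 (adjusted p = 0.0171 and 0.0211). At 10 h of elf18 in WT the median change of the 3 was -1.50, against -0.05 over all tested probe sets. Of the genes that did not pass the filter, AT5MAT, which adds a malonyl group to anthocyanins, read 3.57, 2.53 and 2.31 in untreated ein2, against 2.08 on all 3 arrays of untreated WT. In the treated receptor mutants AT5MAT read 3.14, 3.14 and 3.16 in pepr1 pepr2 at 2 h of Pep2 and 2.83, 2.28 and 3.08 in efr at 10 h of elf18. In pepr1 pepr2 at 10 h of Pep2 it was near the lowest value, at 2.19 ± 0.13, against 2.14 ± 0.10 in WT at 10 h of Pep2. BAN, which acts in seed coat pigment synthesis, lay within 0.1 of the lowest value on all 51 arrays. UGT78D3 read at most 2.75.

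**Figure D5:**
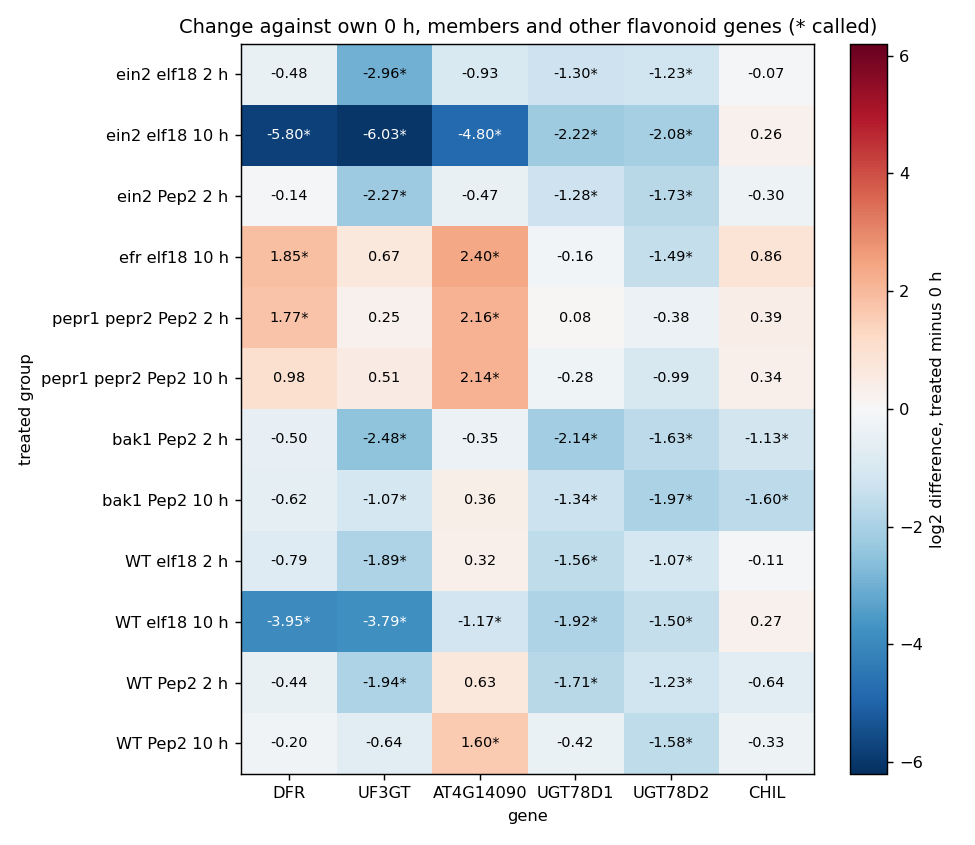
Log2 change against the line's own 0 h (colour and printed value, * called) of the 3 members, UGT78D1, UGT78D2 and CHIL (horizontal axis) in the 12 treated groups (vertical axis). UGT78D2 is lower in every treated group, called in 10 of 12, and AT4G14090 is higher in the treated efr and pepr1 pepr2 groups. CHIL was called in bak1 only, though it is lower in WT under Pep2 as well.

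Genes with the most similar profile were sought over the 17 group means among 7825 other tested probe sets with 1 gene, as a description. The mean of the members, each centred, was most like AT1G71710 (Pearson r = 0.90), followed by UGT72B3, a UDP-glycosyltransferase gene (0.85), AT1G70900 (0.82), SBPASE, an enzyme gene of the Calvin cycle (0.82), AT2G36145 (0.82), AT1G06240 (0.82), AT5G17600 (0.81) and AT1G15260 (0.80). AT1G71710 spanned only 0.93 over the group means, against 7.14 for DFR. The profiles most opposed to the members were those of SIS (-0.83), the cytochrome P450 gene CYP71B24 (-0.82), AT5G64110 (-0.81) and AT5G43450 (-0.81). Taken alone, DFR was most like AT5G17600 (0.84) and counted the vacuolar fructose transporter gene SWEET17 (0.80) among its first 5, with AT1G71710, AT1G70900 and SBPASE. UF3GT was most like AT1G71710 (0.91), UGT78D1 (0.88), AT1G16680 (0.88), AT3G05910 (0.87) and UGT72B3 (0.86). AT4G14090 was most like AT1G71710 (0.86), AT5G46460 (0.82), UGT72B3 (0.78), AT1G06240 (0.77) and AT2G36145 (0.75). With the mean of the members UGT78D1 correlated at 0.74, UGT78D2 at 0.50 and CHIL at 0.33.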

How the data were processed

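RNA of whole seedlings was hybridised to ATH1 arrays, 3 biological replicates in each of 17 groups, and groups were taken from the sample labels. The authors deposited GCRMA log2 values, per the labels, with no version or genome build given in the sources used here. Hybridisation arrays have no read depth, and the number of arrays limits the precision. Genes were named from the platform annotation, which pairs 13513 probe sets with 1 gene, 503 with several and 8730 with none, and list genes were matched by locus through the RefSeq gene table (TAIR10.1). Of 14 activating regulators, 7 repressing regulators, 8 phenylpropanoid entry genes and 3 sugar supply genes listed, none is named there.

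limma 3.58.1 in R 4.3.3 fitted one mean per group to the deposited log2 values of all 51 arrays, with eBayes and 34 residual degrees of freedom, and 40 contrasts. Probe sets with log2 of at least 5 on at least 3 arrays entered, 14568 of 22746, and the 64 control probe sets were left out. The median difference over all tested probe sets was at most 0.14 in size in any contrast. The fit was tested on simulated data with independent normal noise and no lowest value. That test does not cover levels near the lowest value or arrays on which genes vary together. Figures were drawn with matplotlib 3.10.9. Alternatives changed the filter (none, or log2 7), the fit (intensity trend, array weights, a replicate block, only the groups compared), the values (median centring, or quantile normalisation again), the fold minimum (none) and the arrays (each left out in turn), and used Spearman's rho for likeness.

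Named were the 3 members, every listed gene that the annotation pairs with 1 probe set, and for likeness the 8 highest and 4 lowest Pearson r with the mean of the members and the 5 highest with each member. The members and lists were chosen with earlier results of these data known. Residuals of same-numbered arrays correlated at 0.08 on average and those of other numbers at -0.04. As residuals sum to 0 within a group, the second value is largely set by the first and is no separate reference. Every same-numbered pair exceeded 0.1 in 3 of 32 contrasts, which are ein2 with Pep2 against 0 h, untreated ein2 against WT, and WT at 10 h against 2 h of elf18. The block changed no call of a member there.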

Additional observations from a re-analysis of the deposited data

Results flagged for a closer look

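Of 24 interactions of line and treatment computed for the 3 genes, 8 were called. In efr at 10 h of elf18 the response minus that of WT was 5.80 for DFR, 4.45 for UF3GT and 3.57 for AT4G14090, where 14.7% of all tested probe sets were called higher. In pepr1 pepr2 at 2 h of Pep2 it was 2.21 for DFR, 2.18 for UF3GT and 1.53 for AT4G14090, where 11.3% were called higher. There the DFR and AT4G14090 calls ended without replicate 3 of WT Pep2 2 h, and also without other single arrays. That of DFR further ended with array weights, without the filter on low values and when only the groups compared were fitted. In ein2 at 10 h of elf18 the response minus that of WT was -2.25 for UF3GT and -3.62 for AT4G14090, where 1.99% were called lower. There the WT levels ended near the lowest value of the table, so these 2 values cannot be told apart from the higher starting level of ein2. Dixon's test of single outlying values was not applied to groups of 3 arrays.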

How the results depend on the processing

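Over the 3 genes and 40 differences, 1058 of 1080 values under the other alternatives kept their direction and their side of the threshold, and 22 did not. The log2 7 filter, the intensity trend, the replicate block and median centring changed no call of a member. The cause of the changes was not tested. With 3 arrays a group, and with WT levels near the lowest value of the table after 10 h of elf18, the size of changes to or from such levels is limited by the background correction.

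Without a filter the calls ended for DFR in pepr1 pepr2 at 2 h of Pep2 (1.77, adjusted p = 0.0779), for the DFR interaction there (2.21, adjusted p = 0.0809) and for UF3GT in bak1 at 10 h (-1.07, adjusted p = 0.0601). With only the groups compared in the fit, calls ended for the DFR interaction of pepr1 pepr2 at 2 h (2.21), DFR in ein2 minus WT at 2 h of Pep2 (3.48), UF3GT in bak1 at 10 h (-1.07) and UF3GT in bak1 at 10 h minus 2 h (1.41), and UF3GT in ein2 minus WT at 10 h of elf18 was called (1.02). With array weights, calls ended for the DFR interaction of pepr1 pepr2 at 2 h (1.66), UF3GT in bak1 at 10 h (-0.94) and UF3GT in WT at 10 h minus 2 h of Pep2 (0.99), and the DFR interaction of ein2 at 10 h of elf18 was called (-2.20). The same weights turned the sign of 6 uncalled differences: DFR in bak1 at 10 h minus 2 h (0.028), in WT at 10 h minus 2 h of Pep2 (-0.56), in WT at 2 h of Pep2 (0.26) and in the ein2 interaction at 2 h of Pep2 (-0.44), and UF3GT in untreated efr minus WT (-0.30) and in WT with elf18 minus Pep2 at 2 h (-0.35). Quantile normalisation ended the UF3GT call in bak1 at 10 h (-0.97) and turned UF3GT in WT with elf18 minus Pep2 at 2 h (-0.022). Without a fold minimum AT4G14090 was called in ein2 at 2 h of elf18 (-0.93) and in WT at 10 h minus 2 h of Pep2 (0.97). Spearman's rho kept the sign of all 12 likenesses.

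The fit with the replicate number as a block changed no call of a member. Its adjusted p was 1.05e-06 for UF3GT in untreated ein2 minus WT (3.27) and 0.0272 for DFR in pepr1 pepr2 at 2 h of Pep2 (1.77).

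Leaving out 1 array at a time kept 787 of 864 values and changed 77, spread over 36 of the 120 results. With single arrays left out DFR ranged from -1.20 to 0.021 for bak1 Pep2 10 h minus bak1 0 h, -0.69 to 0.53 for bak1 Pep2 10 h minus bak1 Pep2 2 h and -1.81 to 0.31 for bak1 Pep2 2 h minus WT Pep2 2 h. For DFR the values without 1 array ran from -1.08 to 0.10 for efr 0 h minus WT 0 h, 1.25 to 2.43 for efr elf18 10 h minus efr 0 h and -0.995 to 0.22 for the bak1 Pep2 10 h response minus the WT response. DFR had -1.34 to 0.78 for the bak1 Pep2 2 h response minus the WT response, -0.0077 to 0.54 for the ein2 elf18 2 h response minus the WT response and -0.98 to 1.14 for the ein2 Pep2 2 h response minus the WT response. Other DFR ranges were 0.94 to 3.06 for the pepr1 pepr2 Pep2 2 h response minus the WT response, 1.52 to 2.02 for pepr1 pepr2 Pep2 2 h minus pepr1 pepr2 0 h and -1.63 to 0.50 for WT elf18 2 h minus WT Pep2 2 h. Further values of DFR were -0.43 to 0.12 for WT Pep2 10 h minus WT 0 h, -1.04 to 1.08 for WT Pep2 10 h minus WT Pep2 2 h and -1.29 to 0.84 for WT Pep2 2 h minus WT 0 h. With single arrays left out UF3GT ranged from -0.050 to 0.58 for bak1 0 h minus WT 0 h, -1.70 to -0.67 for bak1 Pep2 10 h minus bak1 0 h and 0.78 to 1.81 for bak1 Pep2 10 h minus bak1 Pep2 2 h. For UF3GT the values without 1 array ran from -0.77 to 0.25 for bak1 Pep2 10 h minus WT Pep2 10 h, -0.74 to 0.064 for bak1 Pep2 2 h minus WT Pep2 2 h and -0.39 to 0.53 for efr 0 h minus WT 0 h. UF3GT had -2.54 to -1.96 for the ein2 elf18 10 h response minus the WT response, -0.070 to 0.67 for pepr1 pepr2 Pep2 10 h minus pepr1 pepr2 Pep2 2 h and -0.16 to 0.58 for pepr1 pepr2 Pep2 2 h minus pepr1 pepr2 0 h. Other UF3GT ranges were -0.43 to 0.37 for WT elf18 2 h minus WT Pep2 2 h and 0.82 to 1.62 for WT Pep2 10 h minus WT Pep2 2 h. With single arrays left out AT4G14090 ranged from -0.043 to 0.67 for bak1 Pep2 10 h minus bak1 0 h, 0.31 to 1.03 for bak1 Pep2 10 h minus bak1 Pep2 2 h and -0.64 to 0.015 for bak1 Pep2 2 h minus bak1 0 h. For AT4G14090 the values without 1 array ran from -0.64 to 0.21 for bak1 Pep2 2 h minus WT Pep2 2 h, -1.16 to -0.63 for ein2 elf18 2 h minus ein2 0 h and -1.65 to -0.93 for the bak1 Pep2 10 h response minus the WT response. AT4G14090 had 1.05 to 1.82 for the pepr1 pepr2 Pep2 2 h response minus the WT response, -0.35 to 0.32 for pepr1 pepr2 Pep2 10 h minus pepr1 pepr2 Pep2 2 h and 0.49 to 1.26 for WT Pep2 10 h minus WT Pep2 2 h. Its remaining range was 0.34 to 1.11 for WT Pep2 2 h minus WT 0 h.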
